A study of Mus musculus with 6 samples.

Results

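The genes described here carry glucose into the cell, split it to pyruvate, and settle whether that pyruvate becomes lactate, enters the mitochondrion, or is spared because glucose-6-phosphate leaves for the pentose phosphate pathway. They were listed by name, as 35 genes of glycolysis and pyruvate metabolism. No measured value entered the rule, but earlier results of these data were known when the list was made. Of the 35, 33 had transcript rows in the deposited table of 15450 named genes, and a gene's value is the sum of the normalized values of its rows. Pfkm and Pcx are not analysed here.

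The libraries came from mouse retinal cells stained for the surface protein Thy1 and sorted by flow cytometry. Eyes of mice about 3 to 4 weeks old at the start received AAV-PLAP (AAV-Control, which serves as the comparison virus) or AAV-Sox11 (spelt AAV-So11 in the sample labels), an adeno-associated virus supplying the neuronal transcription factor Sox11. Every eye, control eyes included, stayed under virus for 2 weeks and had its optic nerve crushed 3 days before collection, so no uninjured group enters any comparison here. Each group has 3 libraries, A, B and C, each from 3 retinas of 3 animals pooled. The p-values therefore rest on the spread between pools that is left in the deposited values. Those values are adjusted, as described under data processing, and 1 direction across the libraries has almost no spread left. With this direction as a covariate 0 genes were called higher and 0 lower, against 123 and 235 without it. The effect of the adjustment on spread was not tested further. The mouse strain and the viral promoter stay unknown, being not given in the sources used here, and the labels say that age and sex were roughly balanced between the groups.

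Glycolysis turns each glucose into pyruvate through a chain of soluble enzymes, with hexokinase, phosphofructokinase and pyruvate kinase as its regulated steps. The retina is known for high aerobic glycolysis, most of it in photoreceptors, which export lactate although oxygen is present. Neurons lean more on oxidation of pyruvate in mitochondria and use the pentose phosphate pathway for reducing power. Genes of this pathway also have several transcript forms and, in the mouse genome, many processed pseudogenes, which bears on how reads are assigned to them.

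No member passed the test in either direction, and 1, Slc2a1, passed when the same-day replicate letter was a block (adjusted p = 0.049). Called means an adjusted p under 0.05 in limma with Benjamini-Hochberg adjustment over all 15450 genes; 0 of 33 members were called higher with AAV-Sox11, against 0.796% of all genes, and 0 of 33 were called lower, against 1.52% (2.32% in either direction). At an unadjusted p under 0.05 there were 3 members higher (Slc2a1, Slc16a3 and G6pdx; 12.6% of all genes) and 1 lower (Pdk2; 11.8% of all genes). The median log2 fold change over the 33 was 0.08, beside 0.03 over all genes, and 23 of the 33 were positive, beside 53.8% of all genes. Single members ranged from -0.34 for Pdk2 to 0.77 for Slc16a3.

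The members are also more abundant than most genes (median level at the 83.1 percentile) and more precisely measured (median SE of the log2 fold change 0.12, beside 0.18), which bears on any comparison of the size of changes. The absolute log2 fold change was under 0.25 in 25 of 33 members, beside 53.6% of all genes, and above 0.5 in 2, beside 19.8%. Its median was 0.16, beside 0.23 over all genes. The 95% interval of the log2 fold change lay within -1 to 1 for 32 members, all except Slc16a3, and within -0.5 to 0.5 for 20. For those 20 the interval of the summed value holds no change of 0.5 or more on the log2 scale, whereas for the other members it does. These are separate intervals, each for 1 gene. The deposited values are adjusted, as described under data processing, so the intervals may be too narrow. With the removed direction as a covariate the smallest limma adjusted p of a member was 0.166, against 0.0705 without it. Intervals from that fit are not given here.

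**Figure D1:**
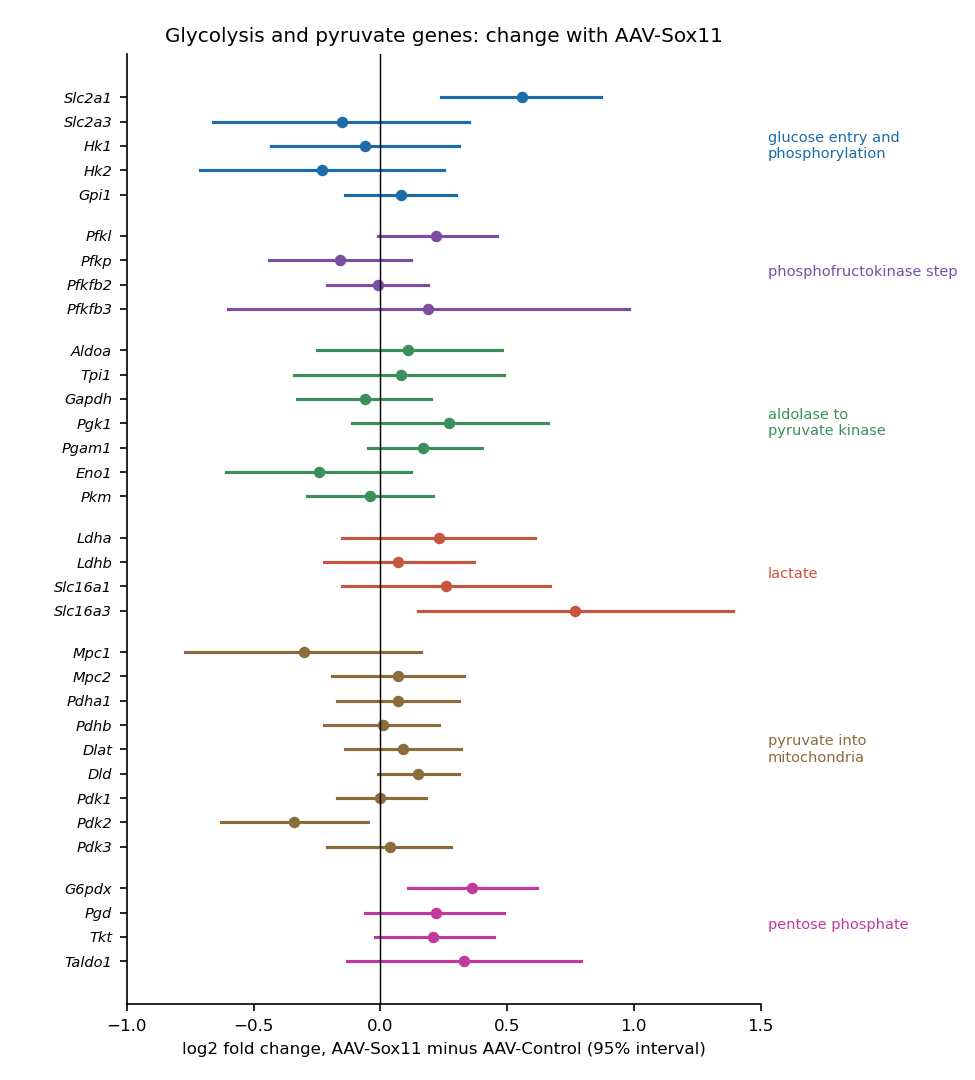
Log2 fold change of each of the 33 members, AAV-Sox11 minus AAV-Control, ordered by role and coloured by role. Points are limma estimates from 3 libraries a group and bars their 95% intervals; Slc2a1, Slc16a3 and G6pdx have intervals above 0 and Pdk2 one below 0, and none of these 4 has an adjusted p under 0.05.

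The libraries differed in ways that touch these genes. Normalized totals ran from 10695330 to 11657271 per library, and the members together held 0.42% to 0.455% of them. Sox11 itself averaged 114.1 in the controls and 232.2 with AAV-Sox11 (limma adjusted p = 0.0504). The sort held more than ganglion cells: the 12 measured rod genes summed to between 27460 and 68670 per library, and the 12 measured ganglion cell genes to between 7464 and 12310. Of the rod genes 11 of 12 had negative log2 fold changes (median -0.53, 0 called), and of the ganglion cell genes 9 of 12 had positive ones (median 0.66, Stmn2 called higher). Negative values also prevailed for bipolar (11 of 11, median -0.79), cone (7 of 8, -0.74) and microglia genes (7 of 7, -0.53), with 0 called in each. The amacrine gene Slc6a9, the horizontal cell gene Prox1 and the red cell gene Alas2 were called lower. Over all genes 53.8% were positive and 2.32% were called in either direction. AAV-Control A stood apart, with a mean centred log2 level of 1.40 for cone, 1.45 for bipolar, 0.92 for Muller glia and 1.61 for endothelial and pericyte genes. An index of the sex of the pooled animals (log2 Xist minus the mean log2 of 4 Y-linked genes) was 6.82, 6.79 and 5.26 in the control libraries and 6.86, 8.11 and 8.45 with AAV-Sox11, so the groups did not overlap. Fewer cells of a type and less RNA per cell cannot be told apart in these sorted pools. The part of cell makeup or of sex in the values below was not tested. Some fits below hold the index as a covariate. Since the index did not overlap between the groups, such a fit cannot separate sex from virus.

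Slc2a1, the glucose transporter GLUT1, had the smallest p of all members. Its gene lies at chr4:119108711-119137983 on the plus strand (GRCm38), and both of its rows in the table are coding transcripts. Slc2a1-201 held 94.9% of the value. The other row, Slc2a1-203, differed in sign, with a log2 fold change of -0.40 ± 0.32 (SE, limma adjusted p = 0.496). Normalized values of the summed gene were 927.2, 836.5 and 653.2 in AAV-Control A, B and C and 1154, 1257 and 1111 in AAV-Sox11 A, B and C. Every AAV-Sox11 library lay above every control, by a log2 fold change of 0.56 ± 0.14 (SE; 95% interval 0.24 to 0.87; limma adjusted p = 0.0705). With the replicate letter as a block its limma adjusted p was 0.049. It was 0.166 with the removed direction described under data processing as a covariate, and 0.309 without AAV-Sox11 B. Once the sex index entered as a covariate its log2 fold change was 0.33 (limma adjusted p = 0.379). In these last 3 fits 0 of all genes were called. In the authors' deposited table its main row, Slc2a1-201, showed 0.59 (log2 fold change) at a false discovery rate of 0.0239, the only row of a member under 0.05 there; 1.93% of all rows in that table were higher and 4.91% lower at that threshold.

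GLUT1 is also the glucose transporter of the vessels of the retina. The 3 endothelial and pericyte genes in the table (Flt1, Rgs5 and Kcnj8, of 8 listed) summed to 17100, 3831 and 3229 in the controls and 6426, 6678 and 5855 with AAV-Sox11. Most of each sum was Rgs5, and the log2 fold changes of the 3 genes were -0.43 for Flt1, 0.15 for Rgs5 and -0.87 for Kcnj8. AAV-Control A, with the highest vascular sum, was also the highest control for Slc2a1, and it lay below all 3 AAV-Sox11 libraries for Slc2a1. Against AAV-Control B and C alone, Rgs5 was higher in all 3 AAV-Sox11 libraries, Kcnj8 was lower in all 3, and Flt1 overlapped. Without that library the log2 fold change of Slc2a1 was 0.66 (limma adjusted p = 0.0747). The part of these cells in the Slc2a1 difference was not tested.

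Slc16a3, the lactate exporter MCT4 (chr11:120948480-120960868, plus strand), was the member with the largest log2 fold change and the lowest level. It had 28.15, 54.92 and 35.7 in the controls and 62.56, 72.69 and 62.34 with AAV-Sox11. The groups did not overlap, at a log2 fold change of 0.77 ± 0.26 (SE; 95% interval 0.15 to 1.39; limma adjusted p = 0.137). Leaving out 1 library at a time moved this between 0.56 and 1.03, the latter without AAV-Control B, its highest control. Its level stood at the 25.2 percentile of all genes, whereas 30 of the 33 members stood above the median level.

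G6pdx, glucose-6-phosphate dehydrogenase, opens the pentose phosphate pathway and lies on the X chromosome (chrX:74409483-74429194, minus strand). Its values were 1314, 1340 and 1165 in the controls and 1436, 1685 and 1808 with AAV-Sox11, again without overlap. The log2 fold change was 0.36 ± 0.11 (SE; limma adjusted p = 0.104), and 0.12 when the sex index was added as a covariate. The other members on the X chromosome were Pgk1, Pdha1 and Pdk3, and with that covariate their log2 fold changes were -0.02, -0.15 and -0.12, against 0.27, 0.07 and 0.04 without it. Members on other chromosomes shifted as far with that covariate, such as Tpi1 from 0.08 to -0.38, Aldoa from 0.11 to -0.16 and Slc16a1 from 0.26 to 0.01.

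**Figure D2:**
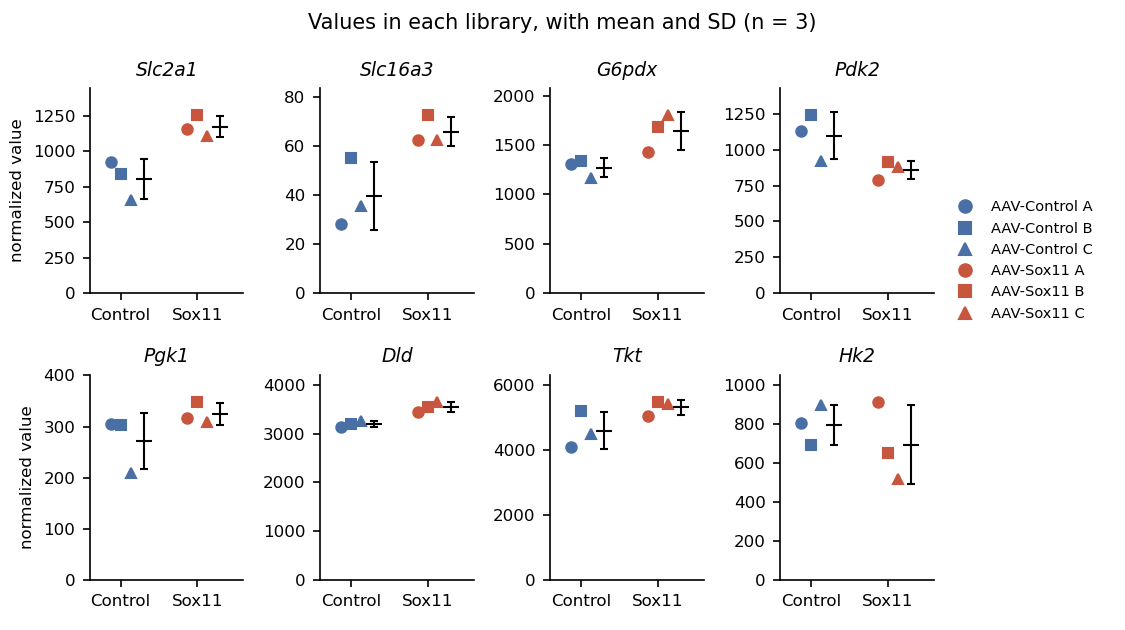
Normalized value of 8 members in each library, from a vertical axis starting at 0, with control libraries in blue and AAV-Sox11 libraries in red and a separate marker for A, B and C; black lines give the mean and SD of 3 libraries. Slc2a1, Slc16a3, G6pdx, Pgk1 and Dld are higher in all 3 AAV-Sox11 libraries than in any control and Pdk2 is lower, whereas the groups overlap for Tkt and Hk2.

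The promoters of these 3 genes are shown because Slc2a1, Slc16a3 and G6pdx are the members that were highest with AAV-Sox11; they were picked for their values, so nothing is tested on them. Each runs from 250 bases before to 50 after a RefSeq start, on build GRCm38.p6, read 5′ to 3′ on the gene's strand. Capitals mark the core of the hypoxia response element, ACGTG or GCGTG on either strand (CACGT or CACGC when read from the other strand). Slc2a1 is chr4:119108495-119108794 (plus), Slc16a3 chr11:120948817-120949116 (plus) and G6pdx chrX:74428831-74429130 (minus).
Slc2a1 promoter: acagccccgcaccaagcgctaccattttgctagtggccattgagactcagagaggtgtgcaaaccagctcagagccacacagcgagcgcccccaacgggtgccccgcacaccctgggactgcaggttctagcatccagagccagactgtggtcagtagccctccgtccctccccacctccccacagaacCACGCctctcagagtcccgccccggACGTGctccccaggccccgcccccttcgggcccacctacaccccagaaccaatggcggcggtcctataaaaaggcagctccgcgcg
Slc16a3 promoter: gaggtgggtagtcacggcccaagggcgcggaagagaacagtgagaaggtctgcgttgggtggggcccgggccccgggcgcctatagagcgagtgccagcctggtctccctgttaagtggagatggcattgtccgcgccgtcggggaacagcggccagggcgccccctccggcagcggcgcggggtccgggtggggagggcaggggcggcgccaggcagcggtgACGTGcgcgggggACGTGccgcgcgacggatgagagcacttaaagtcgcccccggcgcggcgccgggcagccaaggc
G6pdx promoter: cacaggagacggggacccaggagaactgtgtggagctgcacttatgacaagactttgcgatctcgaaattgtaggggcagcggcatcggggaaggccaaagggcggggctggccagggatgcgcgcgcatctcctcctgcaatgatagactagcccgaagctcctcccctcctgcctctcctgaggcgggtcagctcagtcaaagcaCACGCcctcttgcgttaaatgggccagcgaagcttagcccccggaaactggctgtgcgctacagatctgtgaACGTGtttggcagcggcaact
Each of the 3 holds 2 matches to the hypoxia motif and 0 to the Sox motifs searched, AACAAT and AACAAAG on either strand. The RefSeq table matched 34 of the 35 listed genes, with 52 promoters. Of these 52, 39 held the hypoxia motif, which is 75% beside 60% of the 12574 promoters of genes tested here and 43.8% of all 32851. A Sox motif was found in 5 of the 52, from Hk2, Pfkfb2 (in 2 promoters), Pgd and Tkt, which is 9.62% beside 9.85% for genes tested and 15.7% for all. These matches describe letters in a window of 300 bases and are not binding sites.

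The other members at the entry to glycolysis overlapped between the groups. Hk2, a hexokinase that phosphorylates glucose and the more abundant of the 2 measured here, had 803.9, 691.3 and 896.4 in the controls and 916.4, 651.1 and 515.8 with AAV-Sox11. Its groups overlapped widely (log2 fold change -0.23 ± 0.21, SE, limma adjusted p = 0.522), and the AAV-Sox11 libraries alone spanned the whole range of the 6. It was -0.45 without AAV-Sox11 A and -0.04 without AAV-Sox11 C. Gpi1, which turns glucose-6-phosphate into fructose-6-phosphate, had 2847, 3048 and 2476 against 2821, 3075 and 2907 (0.08 ± 0.09, adjusted p = 0.651). Slc2a3, the neuronal glucose transporter GLUT3, and Hk1, the hexokinase bound to mitochondria in brain, had log2 fold changes of -0.15 and -0.06, with overlap in both.

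The phosphofructokinase step, which commits sugar to glycolysis, held the most abundant member by summed value. Pfkp, the platelet-type phosphofructokinase, had 11820, 9332 and 8778 in the controls and 9260, 9065 and 8268 with AAV-Sox11, and made up 16.4% to 23.3% of all member values. It was lower with AAV-Sox11 in all 3 letters, but the groups overlapped (log2 fold change -0.16 ± 0.12, SE, limma adjusted p = 0.446), and without AAV-Control A the log2 fold change was -0.03. Pfkl, the liver-type subunit, had 2474, 2197 and 1950 against 2444, 2643 and 2602 (0.22 ± 0.10, adjusted p = 0.226). Pfkfb2 makes or removes fructose-2,6-bisphosphate, the activator of phosphofructokinase. Its values were 3110, 2911 and 2965 against 3237, 2995 and 2709, a log2 fold change of -0.01 ± 0.09. Pfkfb3, an isoform of the same enzyme, had the widest interval of the group, -0.60 to 0.98.

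From aldolase to pyruvate kinase, 4 of 7 members had positive and 3 negative log2 fold changes, with a median of 0.08. Tpi1, triosephosphate isomerase, had 2373, 2789 and 1806 in the controls and 2012, 2626 and 2650 with AAV-Sox11 (0.08 ± 0.18, SE). Pgk1, the ATP-yielding phosphoglycerate kinase, had 305.8, 302 and 208.4 against 315.9, 348.9 and 309.7. Its groups did not overlap, but the lowest AAV-Sox11 value lay only just above the 2 higher controls, and the log2 fold change of 0.27 ± 0.17 had a limma adjusted p of 0.346. Without AAV-Control C, its lowest library, it was 0.09. Members whose groups did not overlap were 5 on the higher side (Slc2a1, Pgk1, Slc16a3, Dld and G6pdx; 16.2% of all genes) and 1 on the lower side (Pdk2; 14.4% of all genes).

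Pgam1, phosphoglycerate mutase, had 630.1, 595.2 and 550 in the controls and 618.2, 679.1 and 702.9 with AAV-Sox11 (log2 fold change 0.17 ± 0.10, SE). Eno1, enolase, had 746.6, 595.2 and 486.2 against 514, 524.4 and 481.7 (-0.24 ± 0.15, limma adjusted p = 0.365). Eno1 was lower with AAV-Sox11 in all 3 letters, yet most of its spread was among the controls, where AAV-Control A was highest, and without that library the log2 fold change was -0.09. Pkm, pyruvate kinase of muscle and brain, had 2510, 2242 and 2228 against 2007, 2254 and 2560 (-0.04 ± 0.11, adjusted p = 0.854). Aldoa and Gapdh had log2 fold changes of 0.11 and -0.06, with overlapping groups.

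All 4 members that handle lactate had positive log2 fold changes, beside 53.8% of all genes, with a median of 0.25, and none was called. Ldha, the lactate dehydrogenase subunit that favours lactate formation, had 247.6, 236.3 and 175.6 in the controls and 263.8, 276.2 and 229.3 with AAV-Sox11 (0.23 ± 0.16, SE, limma adjusted p = 0.408; 0.08 without AAV-Control C). Ldhb, the subunit common in oxidative cells, had 1463, 1919 and 1641 against 1546, 1800 and 1928 (0.07 ± 0.13). Slc16a1, the monocarboxylate transporter MCT1, had 1213, 840.4 and 726.5 against 1077, 1132 and 1044 (0.26 ± 0.18, adjusted p = 0.399). Its highest value was in AAV-Control A, and the log2 fold change ranged from 0.10 to 0.47 when single libraries were left out. The sums over the 4 lactate members were 2951, 3051 and 2579 against 2949, 3280 and 3263, so the groups overlapped.

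Among the 9 measured members that bring pyruvate into the mitochondrion or control its oxidation, Pdk2 had the lowest log2 fold change of all members. Pdk2 is a kinase that switches off pyruvate dehydrogenase (chr11:95026258-95041354, minus strand; 1 row, coding). It had 1129, 1245 and 922.4 in the controls and 791.3, 912.8 and 883.9 with AAV-Sox11. The groups did not overlap, although AAV-Control C and AAV-Sox11 B lay close together, and the log2 fold change was -0.34 ± 0.13 (SE; 95% interval -0.63 to -0.05; limma adjusted p = 0.155). It ranged from -0.24 to -0.46 with single libraries left out and was -0.61 when the fit held the sex index. The other kinases of this enzyme, Pdk1 and Pdk3, had log2 fold changes of 0.00 and 0.04, with 95% intervals of -0.17 to 0.18 and -0.21 to 0.28.

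The subunits of pyruvate dehydrogenase varied little. Dld, the E3 subunit shared with other dehydrogenases, had 3134, 3195 and 3272 in the controls and 3442, 3542 and 3662 with AAV-Sox11. Its groups did not overlap and its spread within each was narrow, yet the difference was small (log2 fold change 0.15 ± 0.07, SE, limma adjusted p = 0.226). Dlat, the E2 subunit, had 1582, 1622 and 1651 against 1533, 1703 and 1942 (0.09 ± 0.10). Pdha1, the E1 alpha subunit, had 1750, 1766 and 1547 against 1576, 1814 and 1932 (0.07 ± 0.10), and Pdhb, the E1 beta subunit, had a log2 fold change of 0.01. The carriers that take pyruvate across the inner mitochondrial membrane, Mpc1 and Mpc2, had -0.30 and 0.07, and the groups overlapped in both.

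The 4 pentose phosphate members were all positive, beside 53.8% of all genes, with a median log2 fold change of 0.27. Their sums did not overlap between the groups, and 16.2% of all single genes were likewise higher without overlap. The sums were 6551, 7893 and 7237 in the controls and 8132, 8725 and 8773 with AAV-Sox11. Tkt, transketolase, dominates these sums, with 4070, 5194 and 4492 against 5027, 5477 and 5394 (0.21 ± 0.10, SE, limma adjusted p = 0.245). Pgd, which follows G6pdx in the oxidative branch, had 949.5, 989.4 and 1259 against 1270, 1177 and 1239 (0.22 ± 0.12, adjusted p = 0.304). Taldo1, transaldolase, had 218.4, 368.7 and 320.3 against 399.3, 386.3 and 332.8 (0.33 ± 0.20, adjusted p = 0.339). The groups overlapped for Tkt, Pgd and Taldo1. None of the 4 genes was called, and their mean centred log2 level was lowest in AAV-Control A, at -0.32. Without that library the log2 fold changes were 0.39 for G6pdx, 0.14 for Pgd, 0.13 for Tkt and 0.11 for Taldo1. Further measured genes of pentose metabolism, not members, went both ways. Tktl1, Rbks and Rpia had log2 fold changes of 0.48, 0.16 and 0.12, and Pgls, Shpk and Rpe had -0.03, -0.48 and -0.62. Rpe was lower without overlap, as were 14.4% of all genes.

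The libraries of one letter were made on the same day, per the series description, so each letter can also be read as a pair. There were 8 members higher with AAV-Sox11 in all 3 letters (Slc2a1, Pgk1, Ldha, Slc16a3, Dld, G6pdx, Tkt and Taldo1), beside 28.4% of all genes, and 4 lower in all 3 (Pfkp, Eno1, Mpc1 and Pdk2), beside 24.3%. The controls varied more than the AAV-Sox11 libraries. The median SD on the log2 scale was 0.20 and 0.11 over members, beside 0.23 and 0.14 over all genes. The direction without spread described under data processing lay mostly on the AAV-Sox11 libraries. Its squared weight was 18.4%, 57.7% and 12.5% on AAV-Sox11 A, B and C and 0.00272%, 5.04% and 6.37% on the controls. Its part in the narrower AAV-Sox11 spread was not tested. AAV-Control C held the lowest value of 13 of the 33 members and AAV-Sox11 C the highest of 9. Without both libraries of letter C the median log2 fold change of the members was 0.01, beside 0.02 over all genes.

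**Figure D3:**
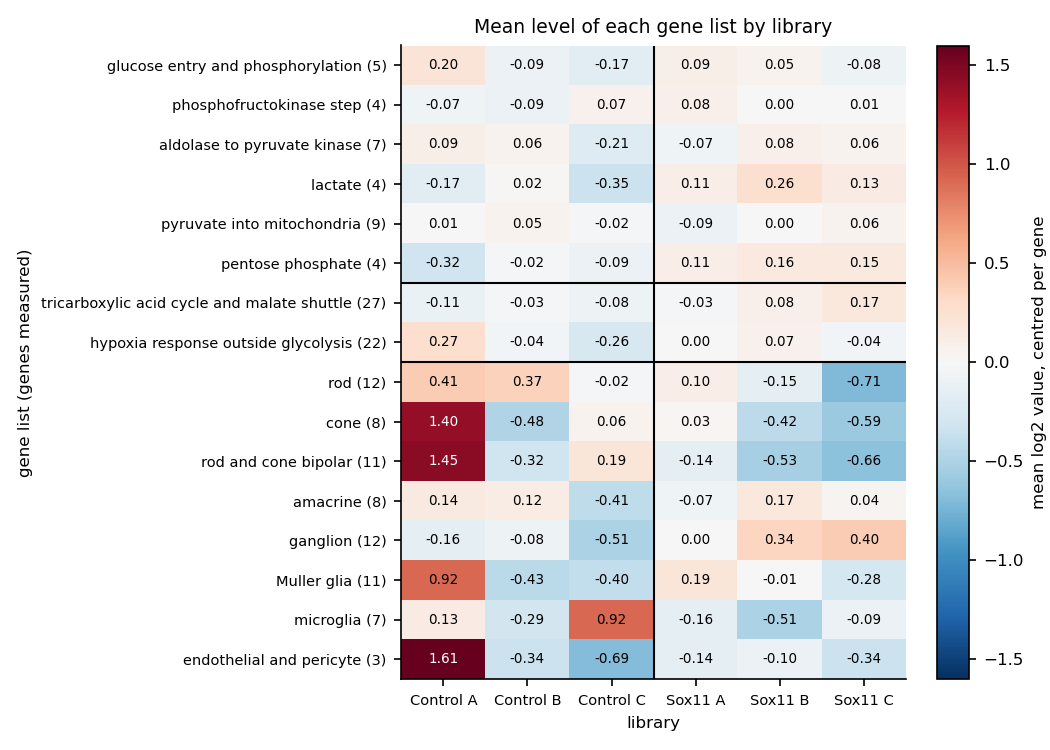
Mean log2 value of the genes of each list in each library, centred per gene over the 6 libraries, with the number of genes measured in brackets; red is higher and blue lower. The role groups of the members, in the top block, stay between -0.35 and 0.26, whereas the cell type lists in the bottom block reach 1.61 in AAV-Control A.

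The transcript rows show which forms of these genes the values rest on. The 33 members had 88 rows, of which 46 are coding and 30 are annotated as retained introns. Fitted over all 26691 rows of the table, 0 of the 88 were called in either direction, against 0.513% of all rows higher, 1.46% lower and 1.97% in either direction, and the smallest limma adjusted p was 0.0782, for Slc2a1-201. The median log2 fold change was 0.07 over the coding rows of members, as over all 13426 coding rows, and 0.02 over their retained-intron rows, beside -0.05 over all 6008.

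Pfkp, the most abundant member by summed value, rested mostly on rows that do not encode the enzyme. Its 3 coding rows held 9.31% of its value, and the retained-intron row Pfkp-212 alone had 8371, 6360 and 6353 in the controls and 6036, 5770 and 5402 with AAV-Sox11. That row was lower without overlap, as were 15.3% of all rows (log2 fold change -0.28 ± 0.12, SE, limma adjusted p = 0.216), whereas the main coding row, Pfkp-207, had 825.2, 840.4 and 595.3 against 855.9, 933.6 and 795.4 (0.21 ± 0.15, adjusted p = 0.446). The mean of Pfkp-212 was 7028 in the controls and 5736 with AAV-Sox11, and that of the summed gene 9975 and 8864, so the other rows together did not add to the difference. Eno1 and Slc2a3 also had most of their value outside coding rows, with 25.2% and 17.8% in them.

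Ldha and Gpi1 had a coding row and a retained-intron row that differed in sign. Ldha-202, coding, had 128.2, 133.4 and 97.45 in the controls and 179.3, 183.8 and 145.8 with AAV-Sox11, without overlap, as were 13.1% of all rows on the higher side (log2 fold change 0.51 ± 0.17, SE, limma adjusted p = 0.145; 9.7% of all rows were higher at an unadjusted p under 0.05). Ldha-204, with a retained intron, had -0.15 ± 0.19, and the third row, the coding Ldha-203, had -0.26 ± 0.29. Gpi1-201, coding, had 0.17 ± 0.10 and the retained-intron row Gpi1-203 had -0.24 ± 0.13. For Pgk1 the coding row Pgk1-201 had 0.33 ± 0.19 and the retained-intron row Pgk1-202 had 0.08 ± 0.32. The row sums of these genes therefore join values that need not move together.

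The share of a gene's value in coding rows, out of coding and retained-intron rows, was compared after these values had been seen. Of 17 members with both kinds of row, 12 had a higher coding to retained-intron ratio with AAV-Sox11, which is 70.6% beside 66.2% of the 2490 genes with both, and 0 of the 2490 genes were called by limma on this ratio (0% higher and 0% lower). At an unadjusted p under 0.05, 2 members were higher (Ldha and Mpc1; 12.7% of the 2490 genes) and 0 lower (3.13%). The ratio of 6 members did not overlap between the groups (Gpi1, Pfkp, Ldha, Mpc1, Mpc2 and Tkt), all higher, beside 17.6% of the 2490 genes higher and 5.42% lower. For Ldha the coding share was 67.5%, 70.1% and 67% in the controls and 75.5%, 76.3% and 75.4% with AAV-Sox11, a log2 ratio change of 0.54 ± 0.15 (SE, limma adjusted p = 0.227). For Mpc1 it was 40.2%, 41.6% and 45.8% against 60.9%, 53.1% and 46.7% (0.63 ± 0.24, adjusted p = 0.276). The median ratio change was 0.25 over the members and 0.15 over all 2490 genes.

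**Figure D4:**
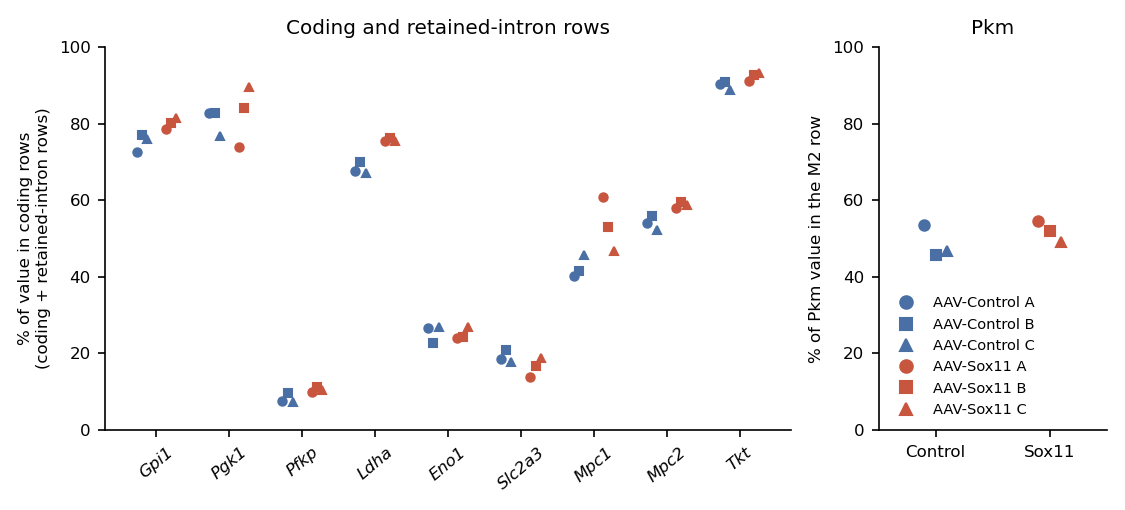
Left, the percent of a gene's value in coding rows, out of coding and retained-intron rows, for 9 members in each of the 6 libraries; right, the percent of the Pkm value in the M2 row. Control libraries are blue and AAV-Sox11 libraries red, with a marker for each letter; the coding share of Ldha is 67% to 70.1% in controls and 75.4% to 76.3% with AAV-Sox11, and the M2 share of Pkm overlaps.

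Pkm yields the form M1 or the form M2 by using 1 of a pair of exons that exclude each other. M1 is typical of mature neurons and muscle, and M2 of proliferating and embryonic cells, though not of these alone. The table holds 1 row of each, Pkm-202 with the M1 exon and Pkm-201 with the M2 exon. Both exons are the exon 9 of their transcript in GENCODE, are 167 bases long and lie on the plus strand in GRCm38, M1 at chr9:59675029-59675195 and M2 at chr9:59675568-59675734. They are printed because they are what separates the forms; capitals mark the 64 positions at which they differ (61.7% identity).
Pkm-202 exon 9 (M1): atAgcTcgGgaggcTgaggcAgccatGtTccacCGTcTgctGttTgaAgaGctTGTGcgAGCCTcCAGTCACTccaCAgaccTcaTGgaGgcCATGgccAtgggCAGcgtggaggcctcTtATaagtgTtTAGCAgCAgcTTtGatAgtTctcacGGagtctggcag
Pkm-201 exon 9 (M2): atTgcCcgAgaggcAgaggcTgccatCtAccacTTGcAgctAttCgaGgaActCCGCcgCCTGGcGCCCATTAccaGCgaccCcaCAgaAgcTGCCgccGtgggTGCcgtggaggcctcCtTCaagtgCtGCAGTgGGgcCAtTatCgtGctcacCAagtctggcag
The M2 row had 1346, 1025 and 1041 in the controls and 1098, 1173 and 1254 with AAV-Sox11, and the M1 row 1164, 1217 and 1187 against 909.1, 1081 and 1306. The M2 row thus held 53.6%, 45.7% and 46.7% of the Pkm value in the controls and 54.7%, 52% and 49% with AAV-Sox11. The means were 48.7% ± 4.3 and 51.9% ± 2.86 (SD, n = 3), a difference of 3.22 percentage points with an exact two-sided permutation p of 0.3, where 0.1 is the smallest this design allows. The shares overlapped between the groups, yet within each letter the share was higher with AAV-Sox11, in 3 of 3 pairs. An exact two-sided permutation within the same-day pairs, added after the data were seen, gave p = 0.25, the smallest that 3 pairs allow. Both forms were present at similar values in every library. The sort held rods and other cells beside ganglion cells, and which cells each form came from was not tested. Pkm-201 and Pkm-202 share their other sequence in large part, and the way reads were divided between them was not given in the sources used here.

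Compared per length of their coding transcripts, the members' levels ranged over 2 orders of magnitude. Per kilobase of coding rows, averaged over the 6 libraries, Pfkfb2 had 1735, Tpi1 1489, Tkt 1384, Dld 1326, Ldhb 1316 and Pkm 1036. Of these, Pfkfb2 and Pkm rest on rows that share much sequence with other genes, as given below, so their places in this order are uncertain. Pfkp, first by summed value, had 318.5 on this scale. At the other end, Slc16a3 had 12.16 and Slc2a3 10.38. Ldhb stood above Ldha, which had 120.6. Gapdh, often used as a reference gene for its high level, had 30.07 and ranked 31 of 33, and it had 3 of its 13 annotated transcripts in the table, of which 1 is coding.

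Sequence shared with other genes limits how far several of these levels can be read. For each coding row, the share of its 50-base words that the transcripts of other annotated genes also hold, pseudogenes included, was averaged over the rows of a gene with weights by value. It was 82.5% for Gapdh (over 222 other genes), 68.7% for Eno1, 68% for Pgk1, 64.9% for Pfkfb2, 41.5% for Pgam1, 36.8% for Pkm and 30.3% for Pdhb. These 7 members included the highest level of all, that of Pfkfb2, and some of the lowest, and their median was 354 per kilobase of coding rows, beside 292 over the 26 others. Their values are uncertain, since reads that match several genes may have been divided or dropped, and their handling was not given in the sources used here. Slc2a1 (1.65%), Slc16a3 (0%) and Pdk2 (0%) share little or no such sequence, and G6pdx shares 10.7%.

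**Figure D5:**
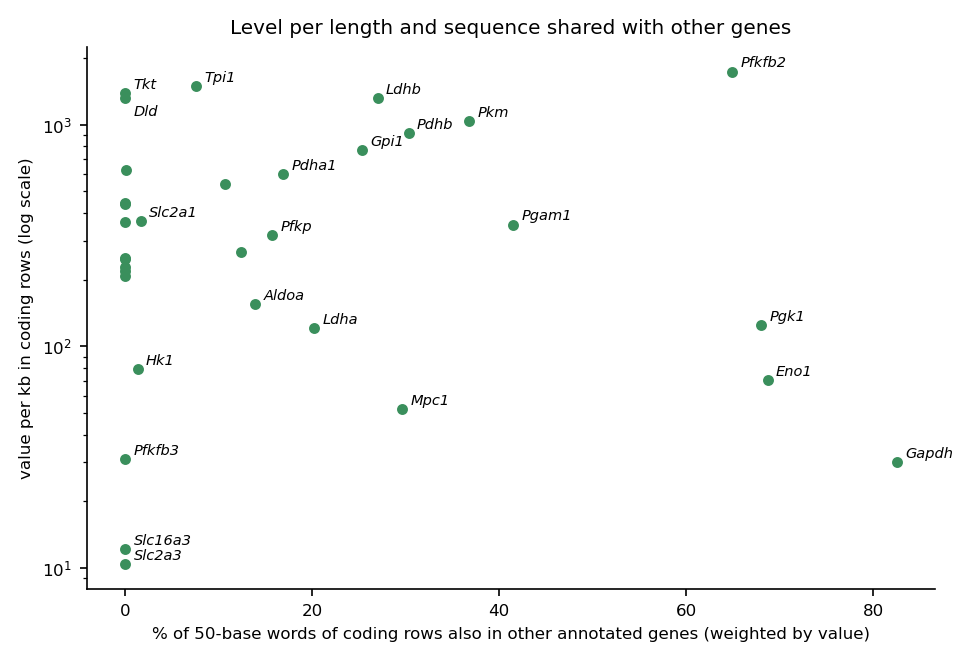
Level of each of the 33 members per kilobase of its coding rows (vertical log axis, mean of 6 libraries) against the percent of 50-base words of those rows that other annotated genes also hold, weighted by value (horizontal axis). Each point is a gene; among genes with much shared sequence, Pfkfb2 (64.9%) is at 1735 and Gapdh (82.5%) at 30.07 per kilobase, and Slc2a3 and Slc16a3 lie lower still with 0% shared.

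Other genes of the same chemistry were not called either. Of 46 further genes of glycolysis, pyruvate and the pentose phosphate pathway, 34 were measured and 0 were called, beside 2.32% of all genes. At that share a count of 0 says little for a list this short. Of the 34, 19 were positive, beside 53.8% of all genes, and the median log2 fold change was 0.08. The most abundant of them, Emb, encodes embigin, a membrane partner of monocarboxylate transporters. It had 1219, 1741 and 1150 in the controls and 1993, 2379 and 2136 with AAV-Sox11, without overlap, at a log2 fold change of 0.68 ± 0.16 (SE, limma adjusted p = 0.0669). Bsg, which encodes basigin and does the same for the transporters of Slc16a1 and Slc16a3, was chosen for comparison after its values were seen and had -0.01 ± 0.15.

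Of 29 genes of the tricarboxylic acid cycle and the malate shuttle, which take up the products of pyruvate dehydrogenase, 27 were measured. Among them 0 were called, beside 2.32% of all genes. Of the 27, 22 were positive (53.8% of all genes), with a median log2 fold change of 0.15. At an unadjusted p under 0.05, 7 were higher and 0 lower, beside 12.6% and 11.8% of all genes. Sdha, a succinate dehydrogenase subunit and the most abundant of them, had 4481, 5238 and 4371 in the controls and 5453, 5795 and 5390 with AAV-Sox11 (0.24 ± 0.09, limma adjusted p = 0.156). Cs, citrate synthase, chosen after its values were seen, had 3293, 3503 and 3188 against 3895, 4253 and 4322 (0.32 ± 0.08, adjusted p = 0.0689).

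Genes of the hypoxia response, whose factor HIF-1 is known to drive many glycolytic genes, were read beside the promoters. Of 26 listed outside glycolysis, 22 were measured and 0 were called, beside 2.32% of all genes. Of the 22, 12 were positive, beside 53.8% of all genes, and the median log2 fold change was 0.01. At an unadjusted p under 0.05, 1 was higher (Ero1l, 0.38 ± 0.12, SE, limma adjusted p = 0.107) and 0 lower, beside 12.6% and 11.8% of all genes. The groups did not overlap for 3 (Egln2, Ero1l and P4ha1), all higher, beside 16.2% of all genes higher and 14.4% lower. Arnt2, a partner of HIF proteins and the most abundant of them, stood at -0.10 ± 0.10 (log2 fold change, SE), and Hif1a, chosen after its values were seen, had 0.03 ± 0.08, with 2027, 1950 and 1882 in the controls and 2127, 2016 and 1832 with AAV-Sox11. The list's mean centred log2 level was highest in AAV-Control A, at 0.27.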

How the data were processed

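Sorted Thy1-positive mouse retinal cells were measured by RNA-seq of polyadenylated RNA in 3 AAV-Control and 3 AAV-Sox11 libraries, grouped by their labels. Per the submitters' processing notes, CASAVA 1.8.2, edgeR (no version) and build mm10 were used; aligner, counter, strand setting and annotation were not given in the sources used here. A whole-number column per library, deposited by the authors, was treated as a score because the values are adjusted and not read counts: across the 6 libraries the spread along 1 direction had an SD of 9.48e-05 natural log units, against 8.96e-05 from rounding and 0.017 from counting. Most of that direction's squared weight, 57.7%, fell on AAV-Sox11 B. The normalized column that the authors deposited is a signal equal to the whole numbers times 1 factor per library (0.9649 to 1.043). Depth is therefore known only roughly, from these totals, and no counting intervals are given. The authors' deposited log2 fold changes and their false discovery rates, the adjusted p-values, are used only where named. A fit with that direction as a covariate left the members' median log2 fold change at 0.08 and called 0 genes. How the adjustment otherwise affects spread or fold changes was not tested.

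Rows of a gene name were summed (357 rows without a name, 0.422% to 0.517% of totals, were left out of the gene fit). The test was limma-trend (limma 3.58.1, R 4.3.3) on log2(value + 1) over 15450 genes, without covariates or filter, with Benjamini-Hochberg adjustment. It was tried on simulated data with independent normal errors and larger changes than any member showed. The simulation had no removed direction and no same-day pairs, so it does not cover those features of these values. A log2 fold change on this scale understates changes of low genes. Columns of per-sample values left unmapped numbered 0. Same-day preparation pairs the letters, per the series description; deviations from group means correlated by 0.00, 0.79 and 0.24 for A, B and C, and the block is an alternative. Other alternatives changed the pseudocount, filter, scaling, variance, summing and libraries, or added the removed direction or a sex index. Members described in full were those with the smallest unadjusted p until 12 were named, plus the 1 to 3 most abundant of each role; transcript rows were described for up to 6 genes whose leading row held under 80% of the value, and for Pkm. Row values of Mpc1, Mpc2 and Tkt were added after being seen. Members and lists were chosen with earlier results of these data known. Transcripts were matched by identifier to GENCODE M21 (GRCm38), and promoters are those of RefSeq.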

Additional observations from a re-analysis of the deposited data

How the results depend on the processing

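The call of 0 members higher and 0 lower held under every alternative but the replicate block, where 1 member, Slc2a1, was called higher (adjusted p = 0.049). Transcript rows called were 1 with the replicate block (Slc2a1-201, 0.0404) and 0 to 1 with single libraries left out (Slc16a3-208 without AAV-Control B, 0.0475). The members' median log2 fold change was 0.08, beside 0.03 over all genes. It was 0.01 with library total scaling (all genes -0.03) and -0.02 with the sex index as a covariate (all genes 0.01). Without both libraries of C it was 0.01 (all genes 0.02). With single libraries left out it ran from 0.01 (without AAV-Control C, all genes 0.03) to 0.15 (without AAV-Sox11 A, all genes 0.04). Signs of small changes turned; the cause was not tested. With the sex index Hk2 had 0.25, Gpi1 -0.09, Pfkfb2 0.08, Tpi1 -0.38, Pgk1 -0.02, Ldhb -0.08, Pdha1 -0.15 and Dlat -0.03. Without both libraries of C, Hk2 had 0.05, Gpi1 0.00, Pfkfb2 0.05, Tpi1 -0.16, Ldhb -0.01 and Pdha1 -0.06. Pkm had 0.06 from its most abundant row and 0.10 without both libraries of A. With single libraries left out, Gpi1 ranged from -0.01 to 0.14, Pfkfb2 from -0.07 to 0.06, Tpi1 from -0.09 to 0.22, Pkm from -0.13 to 0.05, Ldhb from -0.02 to 0.18 and Dlat from 0.00 to 0.17. Over all genes the calls, 123 higher and 235 lower, were 323 and 414 with the replicate block, 103 and 356 with library total scaling and 100 and 355 with upper-quartile scaling. They were 0 and 0 with the removed direction (2582 at an unadjusted p under 0.05), with the sex index (2702), and without AAV-Sox11 A, B or C (3120, 1942 and 2953), so a count of 0 members carries little weight there. Without AAV-Control A they were 51 and 87, and without AAV-Control B 339 and 406. Without AAV-Control C they were 185 and 210, and without both libraries of A, B or C they were 1 and 0, 1 and 0, and 0 and 0.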

Other observations

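Glycogen genes, which store and release glucose beside glycolysis, showed no call either, beside 2.32% of all genes. Of 14 listed, 12 were measured and 8 were positive, beside 53.8% of all genes, and the median log2 fold change was 0.06. Phkb, a phosphorylase kinase subunit and the most abundant of them, had 1128, 1165 and 1157 in the controls and 1175, 1129 and 1056 with AAV-Sox11. Its log2 fold change was -0.04 ± 0.08 (SE, limma adjusted p = 0.784). Gys1, the glycogen synthase of muscle and brain, was singled out after its values were seen. It had 180.6, 191.2 and 174.6 against 278.4, 263.8 and 230.3, without overlap, at a log2 fold change of 0.49 ± 0.12 (adjusted p = 0.0708).

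Of 15 regulators of glycolysis and mitochondrial metabolism listed, 11 were measured and 0 were called, beside 2.32% of all genes. Of the 11, 8 had negative log2 fold changes, whereas 53.8% of all genes were positive, and the median was -0.16. Mtor, the growth and nutrient kinase and the most abundant of them, had 5221, 5931 and 5338 in the controls and 5739, 6173 and 6174 with AAV-Sox11 (0.13 ± 0.08, SE, limma adjusted p = 0.337). Ppargc1a and Nxnl1 were singled out after their values were seen. Ppargc1a, the coactivator PGC-1 alpha of mitochondrial genes, had 1139, 1030 and 1213 against 753.8, 804.8 and 981.4, without overlap, at a log2 fold change of -0.42 ± 0.12 (adjusted p = 0.0963). Nxnl1, which encodes the rod-derived cone viability factor, a protein known to promote glucose uptake by cones, had 225.2, 198.1 and 121.6 against 119.9, 109 and 70.39 (-0.85 ± 0.29, adjusted p = 0.135). Rod genes summed to 68670, 55660 and 44110 in the controls and 49470, 40720 and 27460 with AAV-Sox11, and their part in the Nxnl1 difference was not tested.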
